A study of Mus musculus with 12 samples.

Results

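The rod translatome of mice with a rod-specific loss of Pkm2 was compared with that of control rods, gene by gene, in 6 Rod-TRAP libraries. Translating ribosome affinity purification (TRAP) recovers mRNA bound to tagged ribosomes, here from rod photoreceptors. All mice carried the RiboTag allele, which adds an HA epitope to the ribosomal protein *Rpl22* once Cre has acted, and the i75-Rod-Cre transgene, which directs Cre to rods. Control rods came from littermates with Pkm2fl/+, so that they also carried Cre and 1 floxed allele, and Pkm2_Rodko rods came from Pkm2fl/fl mice. Each genotype had 3 rod libraries, and 3 libraries of total retinal RNA per genotype, the input, complete the 12 libraries of the study. Retinas were taken after perfusion with cycloheximide, which holds ribosomes on mRNA. The deposited design gives an age of 2 weeks and the methods for TRAP give 2 months. The control is thus heterozygous for the floxed allele, and the number of mice behind a library is not given in the sources used here. Nothing states that the libraries came from separate mice, so p-values measure the spread between these libraries. A gene entered the comparison if its mean normalised read count was at least 1 in a genotype, which 20658 of 56748 genes did.

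Pyruvate kinase makes the last ATP of glycolysis as it turns phosphoenolpyruvate into pyruvate. The gene *Pkm* encodes a pair of enzymes that differ by 1 exon, and PKM2 is the form that can be switched between an active tetramer and less active states. Photoreceptors turn most of their glucose into lactate even when oxygen is present, and rods renew their outer segments daily, which demands lipid, protein and nucleotide precursors drawn from glycolysis.

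The 6 rod libraries held between 13458890 and 22790074 reads on genes. Genes of rods were abundant in all of them, and the 21 phototransduction genes took between 20.6% and 22.2% of the reads, against 7.42% to 8.72% in the retina libraries. Markers of other retinal cells were depleted but present, and none of the marker genes was at 0 in all 6 rod libraries. The Y-linked genes *Ddx3y*, *Eif2s3y*, *Kdm5d* and *Uty* were at 0 in control rod replicates 1 and 2 and present in control replicate 3 and in all 3 Pkm2_Rodko libraries. Sex is not given in the labels, and its part in the results was not tested. Results are therefore given with each library's own value where they matter.

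The alternative exons of *Pkm* are shown because the table holds 1 entry for the gene and counts both forms together. The exon of PKM1 (called exon 9 of the gene, here from transcript Pkm-202) and that of PKM2 (called exon 10, from transcript Pkm-201) are coding exons of the same length, 167 bases, and differ at 64 positions. The remaining 103 bases (61.7%) are identical. The sequences are from the GENCODE M21 transcripts of the mouse, read 5′ to 3′ on the strand of the gene, and capitals mark the bases that differ between the exons.
PKM1 exon: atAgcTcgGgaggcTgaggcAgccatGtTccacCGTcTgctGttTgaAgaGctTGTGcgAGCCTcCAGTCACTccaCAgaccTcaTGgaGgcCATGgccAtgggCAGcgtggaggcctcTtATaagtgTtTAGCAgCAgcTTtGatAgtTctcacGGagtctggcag
PKM2 exon: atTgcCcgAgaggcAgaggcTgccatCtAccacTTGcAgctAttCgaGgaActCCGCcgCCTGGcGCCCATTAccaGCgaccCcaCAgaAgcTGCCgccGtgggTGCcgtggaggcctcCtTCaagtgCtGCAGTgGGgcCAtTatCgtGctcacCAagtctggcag

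*Pkm* (ENSMUSG00000032294) was lower in Pkm2_Rodko rods. The control rod libraries had normalised read counts of 52140.7, 51049 and 54504, and the Pkm2_Rodko libraries 23751, 22552.6 and 22245.6. The genotypes lay far apart, and the control library with Y-linked reads, replicate 3, had the highest value. The log2 fold change was -1.20 (95% interval -1.38 to -1.02, adjusted p = 5.36e-05 from limma), and the level fell by 56.5%, to between 0.383-fold and 0.493-fold of control by the interval. In the retina libraries the log2 fold change of *Pkm* was -0.67 (95% interval -0.83 to -0.51). The rod and retina effects of *Pkm* differed by -0.54 on the log2 scale (unadjusted p = 0.000108, adjusted p = 0.995 from limma), so the difference did not pass adjustment.

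Beyond *Pkm*, few genotype differences passed adjustment. At an adjusted p under 0.05, 4 of 20658 genes (0.0194%) were lower in Pkm2_Rodko rods and 0 (0%) were higher, by limma on log2(value + 1), where the value is the deposited read count divided by a size factor. The tools edgeR and DESeq2 on the recovered reads also called 0 higher genes. The 4 lower genes were *Pkm*, its pseudogenes *Gm6560* and *Gm6992*, and *Adpgk*. *Gm6560* had 1519.8, 1466.4 and 1517 in control rods and 690.4, 600.3 and 501.4 in Pkm2_Rodko rods, and *Gm6992* had 369.1, 382.3 and 389.4 against 181.5, 192.9 and 141. Neither pseudogene overlapped between genotypes, and both may hold reads from *Pkm* transcripts. At an unadjusted p under 0.05, 704 genes (3.41%) were lower and 282 (1.37%) were higher. These counts move with single libraries, to 413 lower and 139 higher without Pkm2_Rodko replicate 2, to 879 and 779 without Pkm2_Rodko replicate 1, and to 773 and 486 without control replicate 2. In 1116 genes (5.4%) all Pkm2_Rodko libraries lay below all control libraries, and in 927 (4.49%) they lay above. In total 2043 genes (9.89%) were without overlap, and 986 (4.77%) had an unadjusted p under 0.05 in either direction. With 3 libraries a genotype, the smallest two-sided p of an exact permutation test is 0.1. The median log2 fold change over all genes tested was 0.0060, and 10093 genes (48.9%) were below 0.

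The libraries bound the difference tightly for abundant genes and hardly at all for rare ones. The 95% interval lay within a 1.5-fold change in either direction for 8943 genes (43.3%). None of the 6456 genes with a mean under 10 met this bound. It was met by 8.95% of the 4783 genes between 10 and 100, by 86.6% of 6462 between 100 and 1000, and by 98.7% of 2792 between 1000 and 10000. Among the 165 genes over 10000, 162 were within 1.5-fold, and *Pkm* was one of the other three. For genes with a mean under 10, the depth was too low to bound a change at 1.5-fold.

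*Adpgk* (ENSMUSG00000025236) encodes an ADP-dependent glucokinase and lies close to *Pkm* on the same chromosome. Its normalised read counts were 419, 424.6 and 431.3 in control rods and 225.1, 206.9 and 196.4 in Pkm2_Rodko rods. The genotypes did not overlap, and the spread within each was small. The log2 fold change was -1.02 (95% interval -1.28 to -0.76, adjusted p = 0.00712 from limma). Leaving out 1 library raised the adjusted p to between 0.0555 and 0.0995 in each fit but that without Pkm2_Rodko replicate 1 (0.0198). In the retina libraries its log2 fold change was -0.34 (unadjusted p = 0.00459, adjusted p = 1 from limma).

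The other genes around *Pkm* were examined by their RefSeq order on the chromosome. Within 400 kb of *Pkm*, 12 further genes had a mean of at least 10 over the 6 rod libraries. Their log2 fold changes ran from -0.13 (*Parp6*) to 0.23 (*Gm7616*), the smallest unadjusted p was 0.19, and the genotypes overlapped in every one of them. The interval was within 1.5-fold for 10 of the 12. Among them were *Bbs4*, a subunit of the ciliary BBSome, with means of 3913 and 4006 in control and Pkm2_Rodko rods, and *Nr2e3*, a transcription factor that represses cone genes in rods, with 19176 and 20251. *Hexa*, a lysosomal enzyme, and *Arih1*, a ubiquitin ligase, lie between *Adpgk* and *Pkm* and had log2 fold changes of -0.01 and 0.10. *Adpgk* was the only neighbour in this window that passed the test, and the genes between it and *Pkm* did not pass.

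**Figure D1:**
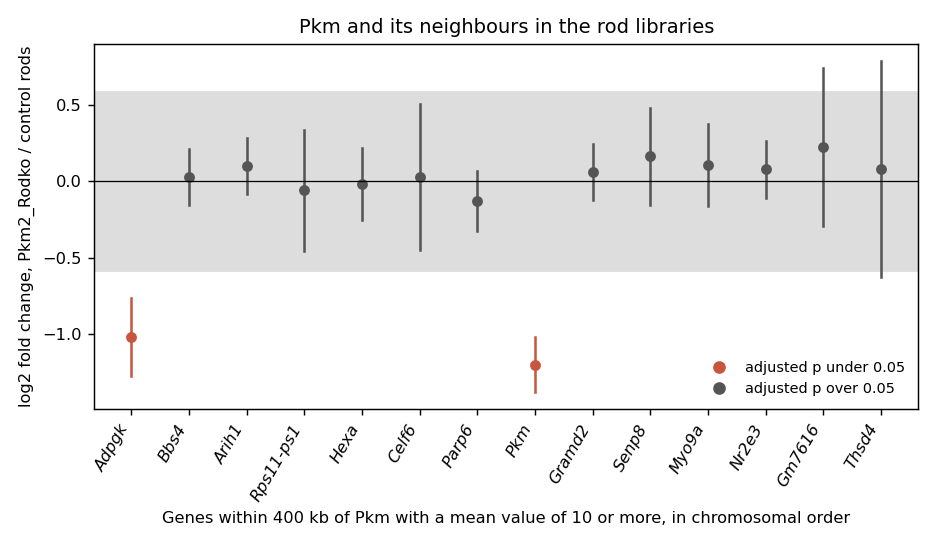
Log2 fold change of Pkm2_Rodko over control rods (y axis) with its 95% limma interval (bars) for *Pkm* and the genes within 400 kb that had a mean of 10 or more, in chromosomal order (x axis), n = 3 libraries a genotype. The grey band marks changes within 1.5-fold. *Adpgk* (-1.02) and *Pkm* (-1.20) lie below it, and the 12 other genes lie between -0.13 and 0.23.

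In the wider window of 10 Mb on either side, 215 genes besides *Pkm* were tested. They had 108 log2 fold changes below 0 and 107 above, with the median at -0.0022. At an unadjusted p under 0.05, 8 were lower and 4 higher, shares near the 3.41% and 1.37% of all genes, and *Adpgk* was the only one past adjustment. The lower ones besides *Adpgk* were *Cplx3*, *Tle3*, *Lingo1*, *Larp6*, *Man2c1*, *Poglut3* and *Gldn*, and the higher ones were *Neo1*, *Dnaja4*, *Gm6257* and *D9Wsu149*. They were not spread evenly by distance. Under 2.5 Mb, 4 of 60 genes were lower and 2 higher, and 20% were without overlap, against 9.89% of all genes. From 2.5 to 5 Mb, 2 of 65 were lower and 2 higher, with 12.3% without overlap. From 5 to 10 Mb, 2 of 90 were lower and 0 higher, with 4.44% without overlap. A trend with distance was not tested. *Neo1*, a netrin receptor, had 852.2, 934.5 and 926.7 in control rods and 1000.6, 1061.2 and 1268.2 in Pkm2_Rodko rods, without overlap (log2 fold change 0.29, or 0.19 without Pkm2_Rodko replicate 3, adjusted p = 0.932 from limma). *Man2c1*, a cytosolic mannosidase, had 406.2, 392.5 and 452.3 in control rods and 330.5, 306.6 and 389.7 in Pkm2_Rodko rods, where the highest Pkm2_Rodko value lay just below the lowest control value (log2 fold change -0.29, adjusted p = 0.932). Neither passed adjustment.

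The genes of rod phototransduction did not change detectably, and the data bound any change. All 21 genes tested were within 1.5-fold, with a median log2 fold change of 0.06 and a range from -0.02 (*Guca1a*) to 0.17 (*Gucy2f*). *Gnat1*, the rod transducin subunit that relays the light signal, had 430617, 397335 and 436564 in control rods and 467504, 424191 and 415074 in Pkm2_Rodko rods, with overlap (log2 fold change 0.05, 95% interval -0.22 to 0.32). *Pde6b*, a catalytic subunit of the cGMP phosphodiesterase, had a log2 fold change of 0.06 (95% interval -0.16 to 0.28). *Sag*, the rod arrestin that ends the response, was at -0.0022 (95% interval -0.27 to 0.27). In 1 of the 21 genes, *Pdc*, which binds transducin, the Pkm2_Rodko libraries lay above all control libraries (102460, 108408 and 112942 against 119421, 113912 and 115636, log2 fold change 0.11, adjusted p = 0.932).

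Structural and regulatory genes of rods gave the same kind of result. Of 19 tested genes listed under outer segment and cilium, 17 were within 1.5-fold (median log2 fold change 0.04), and 0 had an unadjusted p under 0.05. *Prph2* and *Rom1*, which shape the disc rim, were at 0.04 (95% interval -0.21 to 0.29) and 0.01 (95% interval -0.24 to 0.27). *Abca4*, a transporter that clears retinoids from the discs, was at 0.04 (95% interval -0.19 to 0.27). *Mertk* and *Rpgr*, the others of the 19, had wider intervals. *Mertk*, listed here though it is not a structural gene of rods, had a mean of only 15.1 in control rods. All 22 genes of the rod synapse were within 1.5-fold, with log2 fold changes from -0.05 (*Cacna1f*) to 0.25 (*Lrit3*) and a median of 0.02.

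Among 16 photoreceptor transcription factors, 14 were within 1.5-fold, and the median log2 fold change was 0.08. *Nrl*, which sets rod fate, had 69403.5, 76826.6 and 75200.4 in control rods and 83641, 82742.4 and 69513.2 in Pkm2_Rodko rods. Pkm2_Rodko replicate 3 lay among the controls, and the interval ran from -0.14 to 0.31. *Crx*, the factor shared by rods and cones, was at 0.08 (95% interval -0.10 to 0.27). Summed over the 16 genes, the controls had 202316, 205088 and 208667 and the Pkm2_Rodko libraries 218547, 221948 and 212911. The sums did not overlap and were 6.06% higher in Pkm2_Rodko rods, while 0 of the 16 genes had an unadjusted p under 0.05. With total-read scaling the median of these genes moved from 0.08 to 0.05.

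**Figure D2:**
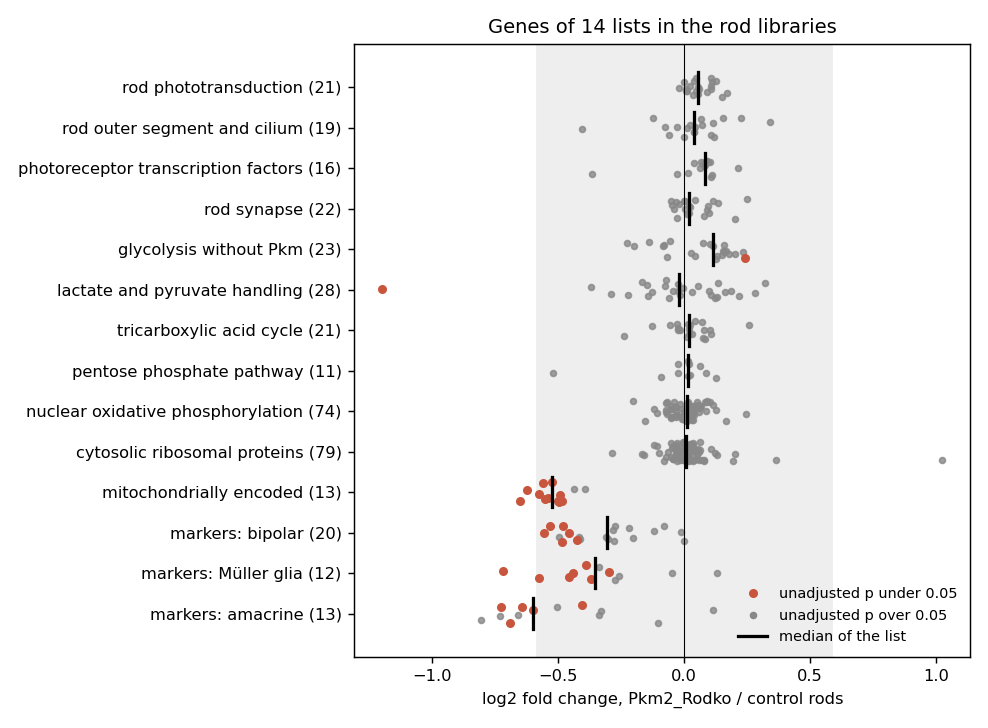
Log2 fold change of Pkm2_Rodko over control rods (x axis) for each tested gene (points) of 14 lists (y axis, number of genes in brackets), with the median of each list (black bar), n = 3 libraries a genotype. Red points have an unadjusted limma p under 0.05 and the grey band marks changes within 1.5-fold. The rod and metabolic lists centre near 0, while the mitochondrially encoded genes (median -0.53) and the markers of bipolar, Müller and amacrine cells lie to the left.

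In glycolysis, *Pkm* and the glucokinase gene *Adpgk* passed adjustment, with the values given above. *Adpgk* was not in the list of glycolytic genes. Of the 23 tested genes of that list, *Pkm* apart, 20 were within 1.5-fold, 16 were above 0, and the median log2 fold change was 0.11, beside 0.0060 over all genes. None of the 23 passed adjustment, and *Pfkp* was the only one of them with an unadjusted p under 0.05. *Pfkp*, a platelet-type subunit of phosphofructokinase, the committed step, had 4785, 4407.2 and 5374.4 in control rods and 5697.2, 5320.9 and 6184.8 in Pkm2_Rodko rods. Control replicate 3 lay within the Pkm2_Rodko range (log2 fold change 0.24, 95% interval 0.04 to 0.45, adjusted p = 0.932).

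Upstream of pyruvate, *Hk2*, the hexokinase typical of cells with high lactate output, had 22168.3, 25576.3 and 25904.4 in control rods and 23871.6, 24400.5 and 32018.7 in Pkm2_Rodko rods. Only Pkm2_Rodko replicate 3 stood above the controls (log2 fold change 0.11, 95% interval -0.14 to 0.37). *Pfkl* and *Eno1*, the liver-type phosphofructokinase and an enolase, did not overlap between genotypes. *Eno1* had 36009.5, 34558.4 and 35975.3 against 41796.7, 40337.4 and 37028, a log2 fold change of 0.16 (adjusted p = 0.932). *Pfkl* had 11338.5, 10892.1 and 12480.2 against 13234.4, 12742.6 and 12539.1, a log2 fold change of 0.15 (adjusted p = 0.932). In both genes the closest libraries of the genotypes were nearly level. *Slc2a1*, the glucose transporter of photoreceptors, was at 0.08 (95% interval -0.15 to 0.30). Summed over the 23 genes, the level was 8.32% higher in Pkm2_Rodko rods, with overlap.

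**Figure D3:**
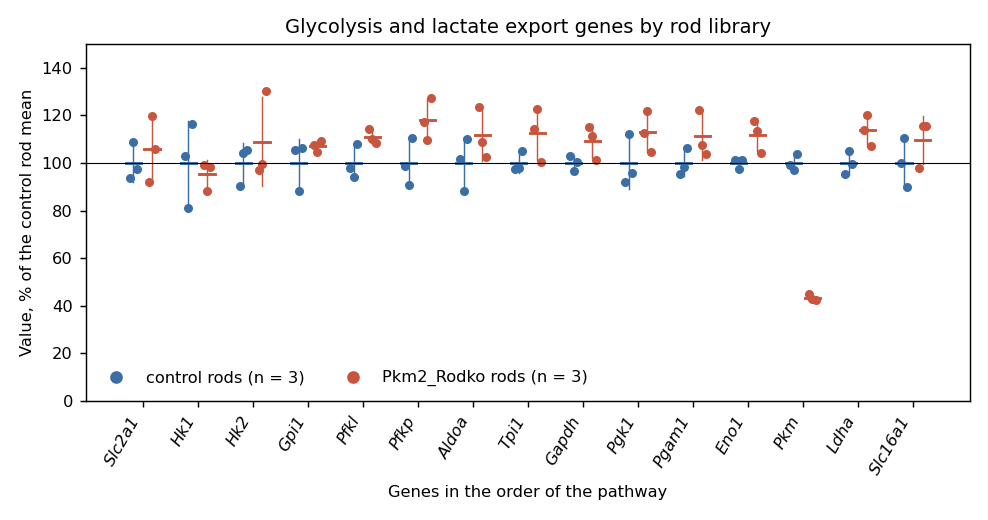
Normalised read count of glycolysis and lactate export genes (x axis, in pathway order) in each rod library as a percent of the control mean (y axis), with the mean (bar) and SD (line) of the 3 libraries a genotype. *Pkm* is the only gene whose Pkm2_Rodko libraries lie below all controls. In *Pfkl*, *Eno1* and *Ldha* they lie above all controls by a small margin.

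Genes that handle pyruvate and lactate showed no loss that passed adjustment. Of 28 tested, 19 were within 1.5-fold and the median log2 fold change was -0.02. *Ldha*, the lactate dehydrogenase subunit that favours lactate, had 34744.7, 38332.3 and 36218.1 in control rods and 41441.9, 43833.9 and 39105.7 in Pkm2_Rodko rods. The genotypes did not overlap, and the log2 fold change was 0.19 (95% interval -0.0061 to 0.38, adjusted p = 0.932). *Slc16a1*, which exports lactate from rods, was at 0.13 (95% interval -0.08 to 0.35). *Slc16a7*, a monocarboxylate transporter with few reads, had 15.4, 30.6 and 23.4 in control rods and 10.1, 9.6 and 7.9 in Pkm2_Rodko rods. It did not overlap and had the lowest value of the list (log2 fold change -1.20, unadjusted p = 0.00786, adjusted p = 0.932). *Mpc1*, a subunit of the mitochondrial pyruvate carrier, was at -0.22 with an interval from -0.62 to 0.17, too wide for the 1.5-fold bound. The sum over the 28 genes was 80580.5, 81745.7 and 82472.7 in control rods and 88397.5, 89725.9 and 83407.7 in Pkm2_Rodko rods, higher by 6.84% without overlap. Most of this rise in the sum, from a mean of 81599.6 to 87177, came from *Ldha*, with means of 36431.7 and 41460.5. Of the 28 genes, 16 were below 0.

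Routes that branch from glycolysis or follow it were also bounded. In the tricarboxylic acid cycle 19 of 21 genes were within 1.5-fold, with a median log2 fold change of 0.02 that became -0.01 when libraries were scaled by total reads. *Cs*, citrate synthase, was at 0.02 (95% interval -0.15 to 0.19). In the pentose phosphate pathway 9 of 11 were within 1.5-fold, among them *G6pdx*, its entry enzyme (log2 fold change 0.01, 95% interval -0.16 to 0.19). Of 20 genes of serine synthesis and one-carbon metabolism only 11 were within 1.5-fold, and 12 were below 0. *Phgdh*, the first enzyme of serine synthesis, had 16.7, 18.2 and 28.3 in control rods and 26.4, 10.7 and 12.7 in Pkm2_Rodko rods, a range too wide to bound a change. In these 3 lists 0 genes had an unadjusted p under 0.05.

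Nuclear and mitochondrial genes of oxidative phosphorylation were described apart, because Rod-TRAP strongly depleted the mitochondrial ones. All 74 tested nuclear genes were within 1.5-fold, from -0.20 (*Ndufc1*) to 0.25 (*Ndufab1*), with a median log2 fold change of 0.01. *Ndufs1*, a core subunit of complex I, had a mean of 1626 in both genotypes (log2 fold change -0.01, 95% interval -0.26 to 0.23). The 13 mitochondrially encoded genes were all below 0, from -0.65 (*mt-Nd5*) to -0.39 (*mt-Nd3*), with a median of -0.53. Of these, 11 had an unadjusted p under 0.05, where 3.41% of all genes were lower by that p. None passed adjustment (adjusted p = 0.932 for *mt-Nd5*), and 0 were without overlap.

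Control replicate 2 and Pkm2_Rodko replicate 2 stood at the ends of this list. The summed value was 35239.3, 52098 and 40053.3 in control rods and 39087.1, 21229.9 and 28547.6 in Pkm2_Rodko rods, so that Pkm2_Rodko replicate 1 lay among the controls. These genes were depleted by Rod-TRAP, and the median of their log2 ratios between control rods and control retina was -4.15. They took between 0.122% and 0.313% of the reads in rods and between 5.19% and 6.85% in retina. In the retina libraries their median log2 fold change was -0.13. The HA tag is on *Rpl22*, a cytosolic ribosomal protein, so lower values here do not show lower mitochondrial transcripts in rods. What input RNA in the rod libraries adds to this difference was not tested.

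Other programmes that could accompany a metabolic lesion were measured with the same fit. Of 19 genes of the integrated stress and unfolded protein response, 16 were within 1.5-fold and 0 had an unadjusted p under 0.05. *Atf4*, its central transcription factor, was at 0.07 (95% interval -0.12 to 0.27), and *Asns*, an *Atf4* target, was lowest at -0.37 (95% interval -0.75 to 0.0030). Of 79 genes of cytosolic ribosomal proteins, 75 were within 1.5-fold and the median was 0.0090. *Rpl22*, the protein that carries the HA tag, had 2105.5, 1958.1 and 2339 in control rods and 2637.8, 2437.5 and 2240.9 in Pkm2_Rodko rods, with overlap (log2 fold change 0.19, 95% interval -0.01 to 0.40). Of 24 antioxidant genes 19 and of 19 HIF-1 and *Myc* target genes 15 were within 1.5-fold, with 0 past an unadjusted p of 0.05 in either list. *Txn1*, a thioredoxin, was at 0.10 (95% interval -0.20 to 0.39).

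Genes of the photoreceptor injury response were variable among the controls. Of 20 tested, only 3 were within 1.5-fold, 17 were below 0, and the median log2 fold change was -0.34, with 0 at an unadjusted p under 0.05. The sum was 9852, 4576.3 and 8472.5 in control rods and 6398.6, 5120.3 and 7621.8 in Pkm2_Rodko rods, so that control replicate 2 was the lowest of all 6 libraries. *Fgf2* and *Edn2*, secreted factors that stressed photoreceptors make, were at -0.36 (95% interval -1.15 to 0.42) and -0.36 (95% interval -1.68 to 0.96). A rise or a fall of 1.5-fold in these genes could not be resolved here.

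Among regulators of *Pkm* splicing 2 of 17, and among genes of insulin signalling 1 of 24, had an unadjusted p under 0.05, against 4.77% of all genes. The share without overlap was 17.6% for the splicing regulators and 8.33% for insulin signalling, against 9.89% of all genes. *Ptbp1*, which favours the PKM2 exon, had a log2 fold change of -0.02 (95% interval -0.26 to 0.22). *Srsf1*, a splicing factor, had 3744.5, 3395.3 and 3342.2 in control rods and 4186.8, 3869.5 and 3882.1 in Pkm2_Rodko rods, without overlap (log2 fold change 0.19, unadjusted p = 0.0409, adjusted p = 0.932). *Rbfox2*, another, had 142.2, 169.3 and 135.6 against 120.6, 90 and 112.5, also without overlap (log2 fold change -0.47, unadjusted p = 0.0195, adjusted p = 0.932). These moved in opposite directions, and neither passed adjustment. Of 24 genes of insulin and PI3K signalling 21 were within 1.5-fold. *Akt2*, a kinase of that pathway, had 438.3, 401.2 and 483.1 against 397.4, 336.6 and 373.9 (log2 fold change -0.25, 95% interval -0.51 to 0.0046). *Irs1*, an adaptor of the insulin receptor, had an unadjusted p of 0.0247 with overlap.

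Lipid and energy buffering genes contributed a further pair. Of 20 genes of docosahexaenoic acid and membrane lipid, 15 were within 1.5-fold. *Lpcat1*, an acyltransferase needed for photoreceptor phosphatidylcholine, had 4881.1, 4286.8 and 4727.4 in control rods and 4964.3, 5540.6 and 6223.6 in Pkm2_Rodko rods. Its libraries did not overlap, but Pkm2_Rodko replicate 1 was close to control replicate 1 (log2 fold change 0.26, unadjusted p = 0.0169, adjusted p = 0.932). The sum of the 20 genes was higher by 7.29% without overlap. Of 20 genes of energy buffering and AMPK signalling 16 were within 1.5-fold, and *Ak4*, a mitochondrial adenylate kinase, had 1184.1, 1705.7 and 1281.7 against 1674.7, 2109.5 and 1540.7, with overlap (log2 fold change 0.36, unadjusted p = 0.0259, adjusted p = 0.932). Among 12 tested genes of gluconeogenesis and glycogen, *Pygm*, a glycogen phosphorylase, had 2286.2, 1209.6 and 1992.7 against 1511.5, 1106.2 and 1363.2, with overlap (log2 fold change -0.42, unadjusted p = 0.0439, adjusted p = 0.932). None of these calls survives adjustment.

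Outside *Pkm* and the genes that the study had listed, the lower genes with the smallest p among those with a mean of at least 10 and no overlap between genotypes were *Olfm4*, *Slc6a12*, *Timp2*, *Cplx3*, *4732471J01Rik*, *Piezo1*, *Eef1a2*, *Zmiz1*, *Car10*, *Gad1*, *Nrxn2* and *Gpr37*. Of these, *Timp2* was outside the study's list of genes lower in rods, but among the candidates it measured by qRT-PCR in retina. None of these 12 passed adjustment (adjusted p between 0.545 and 0.932 from limma). Genes whose genotypes overlapped were not eligible, so the separation of all 12 is no result. *Olfm4*, a secreted glycoprotein, had 15.4, 20.4 and 16 in control rods and 4.1, 1.1 and 1.6 in Pkm2_Rodko rods (log2 fold change -2.58, 95% interval -3.64 to -1.52, adjusted p = 0.545). *Slc6a12*, a transporter of betaine and GABA, had 14.1, 13.9 and 13.6 against 1, 0 and 3.2 (log2 fold change -2.87, adjusted p = 0.697). Both rest on few reads and reached the minimum mean through the control libraries alone, so that this filter too favoured their separation. The same holds for *4732471J01Rik* (means of 20.6 in control and 5.77 in Pkm2_Rodko rods) and *Piezo1* (17.4 and 3.67). In a fit of all 12 libraries, which share 1 estimate of the spread, *Olfm4*, *Slc6a12*, *Timp2* and *4732471J01Rik* passed adjustment (adjusted p between 0.0048 and 0.0448). They were picked by their p in the same rod libraries, so this fit gives no separate support.

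Better covered members of this group had smaller changes. *Timp2*, an inhibitor of metalloproteinases, had 284.5, 361.1 and 336.4 in control rods and 236.2, 197.2 and 185.4 in Pkm2_Rodko rods (log2 fold change -0.66, 95% interval -0.98 to -0.35, adjusted p = 0.868). *Cplx3*, a complexin of retinal ribbon synapses, had 2186.2, 2586.2 and 1828.8 against 1505.4, 1503.9 and 1570 (log2 fold change -0.51, adjusted p = 0.868 from limma and 0.0312 from DESeq2). *Gad1*, which makes GABA and marks inhibitory amacrine cells, had 312.7, 535.5 and 343.8 against 254.4, 220.8 and 243.2 (log2 fold change -0.69, adjusted p = 0.932). Control replicate 2 was the highest library for both *Cplx3* and *Gad1*, and without it *Gad1* was at -0.45. *Zmiz1*, a transcriptional coregulator, *Car10*, a protein related to carbonic anhydrases, *Nrxn2*, a presynaptic adhesion protein, *Gpr37*, an orphan receptor, and *Eef1a2*, a translation elongation factor, had log2 fold changes of -0.52, -0.60, -0.65, -0.57 and -0.65. In the retina libraries the 12 genes were between -0.40 and 0.11, with 0 at an unadjusted p under 0.05.

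All 12 of these genes were depleted by Rod-TRAP, with log2 ratios of rods to retina between -4.40 and -1.60. The ratio is the mean of the ratios in both genotypes, after TMM scaling of the recovered reads. The genotype difference was therefore described along this ratio, over genes with a mean of at least 100 in the 6 rod libraries. Of 184 genes with a ratio below -3, all 184 had a log2 fold change below 0, with a median of -0.47. At an unadjusted p under 0.05, 107 of them (58.2%) were lower and 0 higher, against 3.41% and 1.37% of all genes tested. Of 195 genes between -3 and -2 the median was -0.29, and 58 were lower and 0 higher. The median was -0.08 for 339 genes between -2 and -1, 0.02 for 1849 between -1 and 0, 0.05 for 5629 between 0 and 1, and 0.04 for 1223 at 1 or more. In the main limma fit, no gene with a ratio below 0 and a mean of at least 100 passed adjustment. *Cplx3* passed with DESeq2, as given above.

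The libraries of a genotype differed in this respect too. Relative to the control mean, the median of the 184 most depleted genes was -0.26, 0.31 and -0.05 in the control libraries and -0.23, -0.60 and -0.51 in the Pkm2_Rodko libraries. Control replicate 1 and Pkm2_Rodko replicate 1 were almost level, and control replicate 2 was highest. Leaving out control replicate 2 changed the median log2 fold change from -0.47 to -0.32, and leaving out control replicate 1 changed it to -0.60. In the retina libraries the median of the same genes was -0.09. In bulk libraries fewer cells of a type and less RNA per cell cannot be told apart, and the part that RNA from other cells has in the lower genes was not tested.

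**Figure D4:**
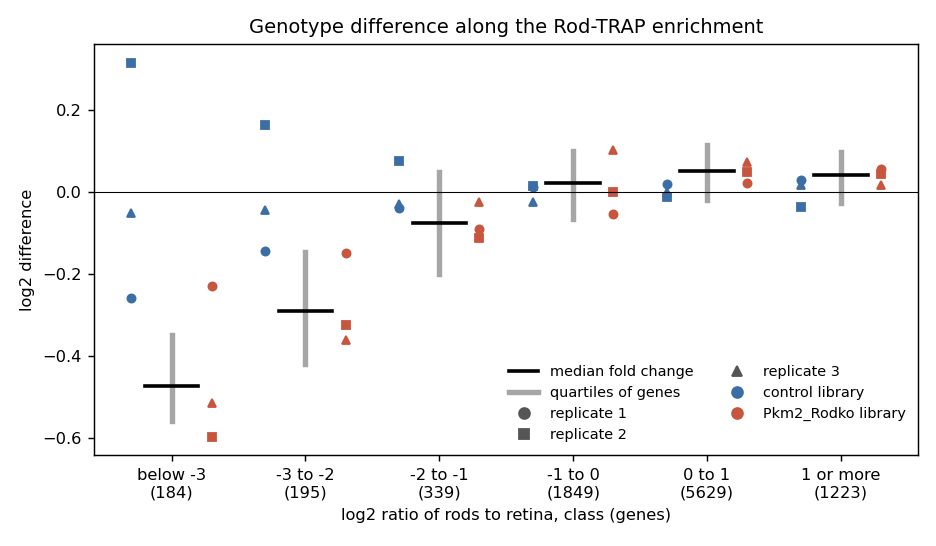
Genotype difference (y axis, log2 scale) in 6 classes of the log2 ratio of rods to retina (x axis, number of genes in brackets), over genes with a mean of 100 or more. Black bars are the median fold change of Pkm2_Rodko over control rods, grey bars run from the lower to the upper quartile of the genes, and symbols are each library's median relative to the control mean. The median falls from near 0 in enriched genes to -0.47 in the most depleted class, where replicate 1 of both genotypes lie side by side.

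Every marker list of other retinal cells had a median below 0. The medians were not in the order of depletion in the control libraries, which was not tested. Microglial markers had a median log2 fold change of -0.09 at a median rod-to-retina ratio of -3.12 (log2), and amacrine markers -0.60 at -2.92. Only 7 of the 10 microglial markers had a mean of at least 10, and 1 was within 1.5-fold. That list is thus too poorly measured to settle the order. These ratios are from the control libraries alone, unlike the ratio over both genotypes used above, for which the order was not examined. At an unadjusted p under 0.05, 3.41% of all genes tested were lower. The 12 Müller glia markers had a median log2 fold change of -0.35, with 7 lower by that p. Their sum ran from 15849.3 to 17526.6 in control rods and from 13001 to 15023.8 in Pkm2_Rodko rods. The 13 amacrine markers had a median of -0.60, with 5 lower, and sums from 2104.3 to 3175 and from 1782.5 to 1995. The 20 bipolar markers had a median of -0.31, with 6 lower, and sums from 5355.2 to 6706 and from 4875 to 6274.3. The Müller and amacrine sums did not overlap between genotypes and the bipolar sums did. Of all single genes tested, 9.89% were without overlap. Examples of these markers are *Dkk3*, which had means of 1522 and 1122 (log2 fold change -0.44, unadjusted p = 0.00303), and *Trpm1*, the channel of ON bipolar cells, with 379 and 267 (-0.49, unadjusted p = 0.0082). None passed adjustment.

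Smaller lists gave mixed results. Horizontal cell markers (7 genes) were at a median of -0.35 on the log2 scale, and their sums, from 949.6 to 1201.6 in control rods and from 850 to 924.5 in Pkm2_Rodko rods, did not overlap. Endothelial markers, of which 8 were tested, had a median of -0.39, and the sums did not overlap (362.3 to 504.8 and 248.3 to 340.6). Ganglion cell markers (12 genes) had a median of -0.36 with overlapping sums. Cone markers (12 genes) were at a median of -0.10, and *Gnb3*, a cone transducin subunit, had 5889.7, 1928.9 and 5098.3 in control rods against 2548.6, 2015.2 and 2785.9 in Pkm2_Rodko rods. Control replicate 2 was the lowest library for *Gnb3*, in contrast to its place in the amacrine genes. The sums of 10 microglial markers overlapped, from 266.1 to 348.9 and from 292.4 to 334.6. Those of 12 pigment epithelium markers overlapped too, from 641.2 to 2657 and from 661.3 to 1778.

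**Figure D5:**
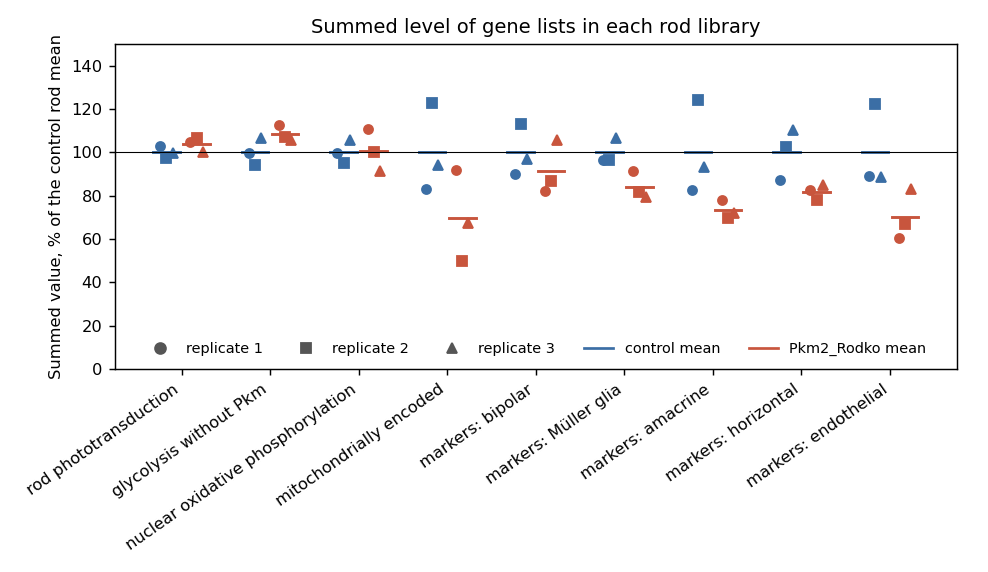
Summed normalised read count of 9 gene lists (x axis) in each rod library as a percent of the control mean (y axis), with symbols for replicates and bars for the mean of 3 libraries a genotype. The phototransduction sums stay within a narrow band. The mitochondrially encoded sum of Pkm2_Rodko replicate 1 lies among the controls, while the Müller, amacrine, horizontal and endothelial sums of all Pkm2_Rodko libraries lie below those of the controls.

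On the higher side, the 12 genes chosen by the same rule were *Kdm5d*, *Eif2s3y*, *Ddx3y*, *Gm43148*, *Mkks*, *Mettl16*, *Gm7546*, *Trmt10b*, *Gm5781*, *Tnfaip3*, *Bicc1* and *Mcm4*, all with an adjusted p of 0.932 from limma. Of these, *Kdm5d*, *Eif2s3y* and *Ddx3y* are Y-linked. *Ddx3y*, an RNA helicase, had 0, 0 and 152.8 in control rods and 155.1, 370.9 and 370.7 in Pkm2_Rodko rods. Control replicate 3 was level with Pkm2_Rodko replicate 1. Without control replicate 3, *Ddx3y*, *Eif2s3y*, *Kdm5d* and *Uty* passed adjustment, and these 4 were then the only higher genes. *Xist*, the X-inactivation transcript, had 71.8, 215.9 and 43.1 against 44.6, 25.7 and 33.3.

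The genes of this group without Y linkage ranged widely in size and spread, from 0.29 for *Tnfaip3* to 1.72 for *Gm5781* on the log2 scale, the latter on few reads (1.3, 5.8 and 2.5 against 13.2, 16.1 and 7.1). *Mettl16*, an RNA methyltransferase, had 804.8, 763.1 and 801 in control rods and 1018.8, 954 and 980.6 in Pkm2_Rodko rods (log2 fold change 0.32, 95% interval 0.12 to 0.51, within 1.5-fold). *Trmt10b*, a tRNA methyltransferase, had 128.1, 128.4 and 129.4 against 175.4, 182.2 and 179 (log2 fold change 0.47, 95% interval 0.16 to 0.78). *Mkks*, a chaperonin-like protein that helps to assemble the BBSome, had 404.9, 415.8 and 377.1 against 505.9, 585.3 and 498.2 (log2 fold change 0.40, 95% interval 0.16 to 0.65). Genes whose genotypes overlapped were not eligible for this group, so the separation is no result. *Tnfaip3*, an inhibitor of NF-κB signalling, had 8641, 9840.8 and 8343.1 against 9883, 11358.8 and 11657.5, and its closest libraries were almost level (log2 fold change 0.29, unadjusted p = 0.00806). *Mcm4*, a subunit of the replicative helicase, was at 0.50, or 0.34 without control replicate 3. *Bicc1*, an RNA-binding protein with few reads, was at 1.45 (2.6, 3.6 and 4.9 against 8.1, 16.1 and 11.9). *Gm5781* and *Bicc1* reached the minimum mean through the Pkm2_Rodko libraries alone, so that filter too favoured their separation.

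Of these 12 higher genes, 5 had a ratio of rods to retina below 0, with a median ratio of 0.35. Among all genes enriched at least by a log2 ratio of 1 with a mean of at least 100, *Pkm* left out, 1152 of 1222 (94.3%) were within 1.5-fold. At an unadjusted p under 0.05 in that class of 1223, 24 genes (1.96%) were higher and 8 (0.654%) lower, *Pkm* included. Over all genes tested the shares were 1.37% higher and 3.41% lower. *A930031H19Rik* had a log2 fold change of 0.70, with overlap (112.8, 43 and 91.2 against 135.8, 111.5 and 128.3, adjusted p = 0.932 from limma). *Nt5e*, a nucleotidase on the surface of rods, had 6408.7, 7950.5 and 7507.6 in control rods and 8131.2, 9911.8 and 8679.2 in Pkm2_Rodko rods (log2 fold change 0.29, unadjusted p = 0.0137, adjusted p = 0.932). Both were named after their values were seen.

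The genotype effect in rods was set against that in the retina in 1 fit of all 12 libraries. This fit did not pair rod and retina libraries of the same number. *Ddx3y* was at 0, 0 and 152.8 in the control rods and at 0, 0 and 293.4 in the control retina libraries. What pairing would change was not tested. The difference of the effects passed adjustment in 0 of 20658 genes (0%), and 884 (4.28%) had an unadjusted p under 0.05. *Pkm* itself did not pass, so the count does not show that the effects are alike. The difference also passed in 0 of the 12 lower and 0 of the 12 higher genes named above.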

How the data were processed

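Rod-TRAP and input RNA of both genotypes was sequenced in 3 libraries per group, and libraries were grouped by the sample labels. The signal deposited by the authors is, for each gene in each library, its number of reads divided by a size factor computed within the 6 libraries of a fraction, rounded to 1 decimal. Per the labels, CASAVA 1.8.2, HISAT2, DESeq2, edgeR and the build GRCm39 were used, in roles and order that are not given, and the counter and its use of strand are not given in the sources used here. Reads of overlapping genes and of pseudogenes may therefore be shared. Dividing the deposited signal by the value of 1 read gave whole numbers within 0.051 for 99.995% of positive values, so whole reads were recovered. Rod libraries held 13458890 to 22790074 reads, and 3 libraries a genotype set the precision.

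The members and lists were chosen with earlier results of these data known. The main test was limma 3.58.1 (R 4.3.3) with a variance trend on log2(value + 1) over genes with a mean of at least 1 in a genotype, with Benjamini-Hochberg adjustment over 20658 genes at 0.05, two-sided. Fold changes on this scale understate the change of rare genes. Rods and retina were compared in 1 limma fit with 4 group means, without pairing libraries by number, on recovered reads scaled by TMM. Alternatives were edgeR 4.0.16 with TMM or RLE, DESeq2 1.42.0, other filters, pseudocounts and scalings, 1 fit of all 12 libraries, a replicate block and leaving out each library. Scripts were tested on simulated data. Python 3.11.15, numpy 2.4.6, pandas 2.3.3 and matplotlib 3.10.9 were also used. Named genes were *Pkm*, those past adjustment, lead members of the lists, the 12 lower and 12 higher genes of smallest p without overlap (mean of at least 10, outside the study's list), and genes within 10 Mb of *Pkm* at an unadjusted p under 0.05. Other named members were chosen after their values were seen. RefSeq positions (GRCm38.p6), matched by symbol for 88.9% of tested genes, served only to find neighbours, and no coordinates are printed because the builds differ.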

Additional observations from a re-analysis of the deposited data

How the results depend on the processing

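The count of 4 lower genes became 7 with DESeq2, 0 without the variance trend and 18 in the fit of all 12 libraries, and lay between 2 and 4 with each library left out. DESeq2 added *Akap12* and *Lrp2*, which the study had listed, and *Cplx3*, which it had not. The 18 include all 4, and *Pkm* and *Gm6560* were called in every fit that left out a library. From the study's list, the 18 also hold *Actl6b*, *Akap12*, *Cabp5*, *Dtna*, *Grm6*, *Lrp2*, *Pam* and *Pcsk6*. Outside that list they hold *4732471J01Rik*, *Cap2*, *Dock1*, *Olfm4*, *Slc6a12* and *Timp2*. The count of 0 higher genes became 4 with a replicate block and lay between 0 and 4 with a library left out, the Y-linked *Ddx3y*, *Eif2s3y*, *Kdm5d* and *Uty* in both cases. Same-numbered libraries of the genotypes deviated together with correlations of -0.08, 0.07 and -0.19, so the numbers do not pair them. At an unadjusted p under 0.05, lower genes numbered 455 where every library needed 10 reads, 399 with DESeq2, 1394 in the fit of all 12 libraries and 413 to 879 with a library left out. Higher genes numbered 180, 124, 542 and 139 to 779 in the same order, and total-read scaling gave 817 lower and 189 higher. Genes bounded within 1.5-fold stayed between 8060 and 9393. Without the variance trend *Pkm* (-1.20) and *Adpgk* (-1.02) no longer passed (adjusted p = 0.0784 and 0.183). With a library left out *Pkm* stayed between -1.23 and -1.18 and passed each time, while *Adpgk* stayed between -1.07 and -0.97. The median around *Pkm* was -0.0022, -0.03 within 5 Mb and 0.01 within 20 Mb. Of 465 list medians recomputed, 7 moved by more than the spread between libraries. Of 974 recomputed values of other named genes, 8 moved by that measure, 6 lost and 11 gained a call, and 0 called values changed sign. The causes were not tested. The depth limits statements on genes with a mean under 100, and 3 libraries a genotype limit all of them.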
